A study of Caenorhabditis elegans with 4 samples.

Results

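HIM-5 peaks on chromosome IV of Caenorhabditis elegans are described here. They are the rows of the series-level peak list that lie on that chromosome, chosen by chromosome alone, 420 of the 2191 peaks on the 6 nuclear chromosomes (19.2%, exact 95% interval 17.5% to 20.9%). Chromatin immunoprecipitation with sequencing (ChIP-seq) was made with a rabbit polyclonal antibody to HIM-5 in fem-2(b245) III hermaphrodites kept at 20 °C. The 4 samples were 2 ChIP replicates and 2 input DNA samples, all of this one genotype, and none of them lacked HIM-5. The labels give the stage as young adults that contain a germ line, whereas their growth protocol speaks of gravid adults, and they do not say whether the replicates came from separate cultures. Lists for both ChIP replicates accompanied the series list, with 177 peaks on chromosome IV in replicate 1 and 168 in replicate 2. The input samples were not analysed here.

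HIM-5 is a chromatin-associated protein of the worm germ line, known for promoting the meiotic double-strand breaks that start crossing over, above all on the X chromosome. fem-2 is a sex-determination gene that promotes male fates, sperm production included. Worm autosomes have gene-dense centres with few crossovers and repeat-rich arms where most crossovers fall. Chromosome IV also carries the large clusters of genes for piRNAs, the small RNAs that guide the Argonaute protein PRG-1 to silence foreign and transposon sequences in the germ line. In the RefSeq gene table of assembly WBcel235, 14714 of 15363 piRNA genes (95.8%) are on chromosome IV. The peak coordinates are of another build, WS220, so that table gave the chromosome of these genes only, and no peak below is tied to a gene or printed as sequence.

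A peak here is an interval called by the authors' program, with a start, an end and the authors' own score, whose scale the sources used here do not give. Scores are compared only within a list. The read depth behind a peak is unknown, so a site missing from a list is a site not called, not a site shown to be unbound. Intervals on shares and densities are exact 95% intervals (Clopper-Pearson and Poisson). They cover counting error only, and they take each peak as independent of its neighbours, which does not hold for grouped peaks. With 2 ChIP replicates and no ChIP sample of another condition there was no test over samples, and differences between regions, lists or chromosomes below are descriptions without a p-value.

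Series peaks of chromosome IV were most crowded in the central of 3 equal parts of 33.3% each, largely through one stretch of 62.5 kb. The central part of the 17.5 Mb span held 181 of 420 series peaks (43.1%, 38.3% to 48.0%), or 31.0 per Mb (26.7 to 35.9). The left part held 113, or 19.4 per Mb (16.0 to 23.3), and the right part 126, or 21.6 per Mb (18.0 to 25.7). The interval of the central part lay above those of both outer parts. The stretch from 6668438 to 6730927, described further on, supplied 46 of its 181 peaks. Without that stretch, left out after its values were seen, the central part held 23.4 per Mb (19.6 to 27.7), and its interval overlapped both others. With the whole list, replicate 1 showed the same order, with 14.6, 9.95 and 5.83 peaks per Mb in the central, right and left parts, and without the stretch its centre had 10.4. In replicate 2 the right part was the densest, with 11.8 peaks per Mb against 10.3 in the centre and 6.69 on the left. The left part was the thinnest in all 3 lists, and the replicates disagreed on which of the other two came first. The central share of the series list was 32.7% on chromosome I, 37.2% on III, 40.9% on X, 44.5% on V and 45.5% on II, so that of chromosome IV lay within the range of the others.

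**Figure D1:**
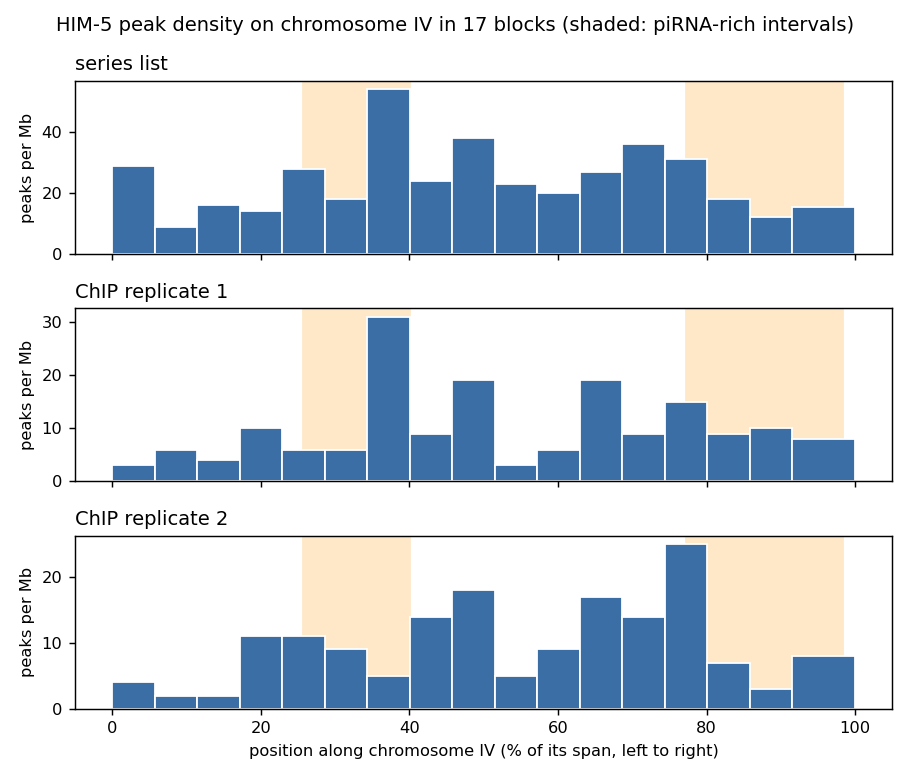
Peaks per Mb (y axis) in 17 blocks along chromosome IV (x axis, % of the span) in the series list and both ChIP replicate lists, with the piRNA-rich intervals shaded. The block that starts at 6 Mb holds 54 series peaks and 31 replicate 1 peaks but 5 replicate 2 peaks, and the first block holds 29 series peaks against 3 and 4.

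In blocks of 1 Mb (the last of 1.49 Mb), series counts ran from 9 in the block that starts at 1 Mb to 54 in the block that starts at 6 Mb. That block held 31 peaks in replicate 1, its highest count, and 5 in replicate 2. The block that starts at 8 Mb was well filled in every list, with 38, 19 and 18 peaks in the series list, replicate 1 and replicate 2, and so was the one that starts at 11 Mb, with 27, 19 and 17. Replicate 2 had its highest count, 25, in the block that starts at 13 Mb, where replicate 1 had 15 and the series list 31. Over the 17 blocks, Spearman's rho was 0.573 between the replicates, 0.381 between the series list and replicate 1, and 0.565 between the series list and replicate 2. These coefficients describe blocks of one chromosome that share libraries and mappability, and the series list may share reads with the replicates.

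The 2 ends of the chromosome differed. The first 1 Mb held 29 series peaks but only 3 peaks of replicate 1 and 4 of replicate 2, and 25 of the 29 were overlapped by neither replicate list (86.2%, 68.3% to 96.1%). On the whole chromosome that share was 49.0%. Of these 29, 17 belonged to 2 tight groups between 292137 and 311405, and the median score of the 29 was 4.42. The last 1 Mb held 17 series peaks and 9 in each replicate list, and 6 of the 17 were overlapped by neither (35.3%, 14.2% to 61.7%). The first series peak, at 1 to 237, had one of the lower scores of the chromosome, 3.34 (rank 358 of 420). The replicate lists scored the same site well above their medians, at 461.9 in replicate 1 (median 102.4) and 564.5 in replicate 2 (median 98.7). At the other end the order turned round. The last series peak, at 17493454 to 17493824, had a score of 22.06 (rank 27) and was met by no replicate peak, the replicates' last peaks ending at 17492955 and 17492912.

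The 2 intervals in which piRNA genes are known to be concentrated, 4.5 to 7 Mb and 13.5 to 17.2 Mb, were set against the rest of the chromosome. Together they make up 35.4% of its length and held 125 series peaks (29.8%, 25.4% to 34.4%), so peaks were somewhat thinner there, at 20.2 per Mb (16.8 to 24.0) against 26.1 per Mb outside (23.2 to 29.3). The replicates differed in direction. In replicate 1 the intervals held 70 of 177 peaks (39.5%, 32.3% to 47.2%), 11.3 per Mb against 9.47 outside. In replicate 2 they held 35 of 168 (20.8%, 15.0% to 27.8%), 5.65 per Mb against 11.8 outside. Density inside was thus 0.772 times that outside in the series list, 1.19 times in replicate 1 and 0.479 times in replicate 2, and over the replicates it was 8.47 ± 3.99 per Mb inside and 10.6 ± 1.63 outside (SD, n = 2). These SDs describe each side alone and not the difference within a replicate, which had opposite signs in the 2 replicates.

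The 2 intervals were unlike each other in the series list. The left one was dense, with 74 peaks or 29.6 per Mb (23.2 to 37.2), while the right one was thin, with 51 peaks or 13.8 per Mb (10.3 to 18.1). The part between them, from 7 to 13.5 Mb, held 194 peaks, or 29.8 per Mb (25.8 to 34.4). Replicate 1 had 37 peaks in the left interval and 33 in the right, and replicate 2 had 16 and 19. Neither interval held a site of very high score. Their highest series scores were 21.4 on the left, at 5691044 to 5691508, and 27.3 on the right, at 14033768 to 14034219. Of the 33 chromosome IV peaks with a score of 20 or more, 4 lay inside the intervals and 29 outside, 23 of them in the part between. In base pairs, peaks covered 7.35 kb per Mb inside and 13.0 kb per Mb outside in the series list, 4.32 and 6.64 kb per Mb in replicate 1, and 2.81 and 7.95 kb per Mb in replicate 2. Coverage was therefore lower inside in all 3 lists, also in replicate 1, where the number of peaks per Mb was higher. Coverage leans on few wide peaks. The 10 widest made up 15.9% of covered bases on the chromosome in the series list, 30.0% in replicate 1 and 28.4% in replicate 2.

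A single stretch of 62.5 kb near the end of the left interval, from 6668438 to 6730927, held most of the peaks there. It had 46 series peaks, 62.2% of those in the left interval. Replicate 1 had 25 peaks in it (67.6% of its left-interval peaks) and replicate 2 had 2 (12.5%). Series scores in it ran from 1.48 to 8.05. Those of replicate 1 ran from 53.9 to 151.8. Those of replicate 2 were 60.9 and 62.5, both under the lower quartile of its chromosome IV list, 69.7. No score in the stretch passed the upper quartile of its list on chromosome IV. Of the 46 series peaks 10 lay above the median, and of the 25 replicate 1 peaks 5 did. Of the 46 series peaks, 27 were met by neither replicate list, 16 by replicate 1 alone, 1 by replicate 2 alone and 2 by both. On the whole chromosome these classes held 49.0%, 14.3%, 14.8% and 21.9% of series peaks, in the same order. Without the stretch, chosen for this after its values were seen, the left interval held 11.5 series peaks per Mb, 4.92 in replicate 1 and 5.74 in replicate 2. Density over both intervals was then 0.493 times that outside in the series list, 0.774 times in replicate 1 and 0.457 times in replicate 2. Taking the densest stretch from the inside alone can only lower these ratios. With all 10 runs of neighbouring series peaks (defined below) left out on both sides, they were 0.626, 0.857 and 0.498. What made replicate 1 and the series list differ from replicate 2 in this stretch was not tested.

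**Figure D2:**
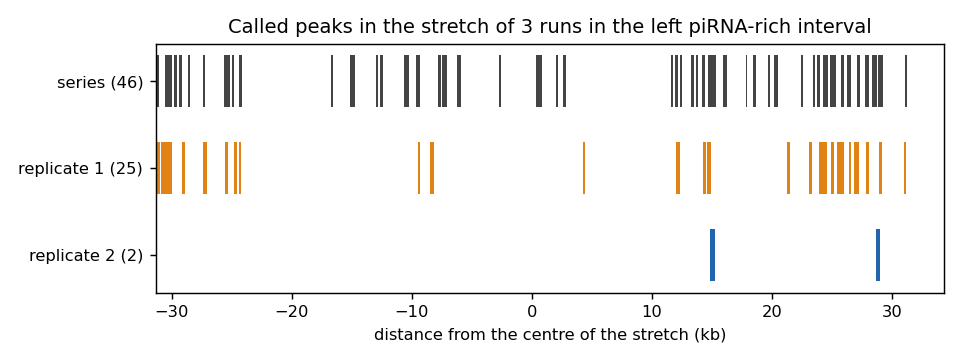
Called peaks (bars, drawn to scale) in the 62.5 kb stretch of the left piRNA-rich interval, by distance from its centre in kb, in the series list and both replicate lists. The series list has 46 peaks and replicate 1 has 25, and replicate 2 has 2, both in the right part.

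The edges of the intervals also mattered. The 4 flanks of 200 kb just outside them held 43 series peaks in 800 kb, 19 of these before the left interval and 13 before the right one. Of the 43, 21 belonged to runs of neighbouring peaks (defined below), 15 before the left interval and 6 before the right one. Replicate 1 had 11 peaks in the flanks and replicate 2 had 26. With the intervals lengthened to take in these flanks, they held 40.0% of series peaks on 40.0% of the length, and with 200 kb taken off each edge 28.1% of peaks on 30.9% of the length.

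Peaks on chromosome IV sat in tight groups with long empty stretches between them. Of the 419 gaps between neighbouring series peaks, 205 were under 2 kb (48.9%), 66 were 2 to 20 kb, 85 were 20 to 100 kb and 63 were 100 kb or more. The median gap was 2481 bp, with quartiles of 304 bp and 59281 bp. On the other chromosomes the median gap ran from 1211 bp on X to 15898 bp on I, and the share of gaps under 2 kb from 35.3% on III to 54.1% on II. Joining peaks less than 10 kb apart left 173 sites, of which 96 were single peaks. The replicate lists were sparser, with median gaps of 19640 bp and 21527 bp.

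The 5 longest stretches with no series peak ran from 317.0 to 486.1 kb. The longest, 15409759 to 15895842, lay wholly in the right piRNA-rich interval, yet replicate 1 had 5 peaks in it and replicate 2 had 1. Next were 1746076 to 2177835 (431.8 kb), empty in all 3 lists, and 4728143 to 5086616 (358.5 kb), in the left piRNA-rich interval, with 2 peaks of replicate 2. The stretch from 16503227 to 16845473 (342.2 kb), in the right interval, was empty in all 3 lists, and 2830580 to 3147593 held 1 peak of replicate 1 and 2 of replicate 2. Of these 5 stretches, 3 lay in the piRNA-rich intervals, which make up 35.4% of the length, and 2 were empty in every list. The count depends on stopping at 5. The next stretch, of 316.8 kb, lay mostly in the left interval (269.1 kb), and those of 313.1 and 308.9 kb lay outside both intervals.

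Runs, defined as 6 or more peaks each less than 2 kb from the next, numbered 10 and held 95 series peaks (22.6%, 18.7% to 26.9%). The other chromosomes had 2 (III) to 12 (V) runs, with 9.58% (III) to 24.2% (X) of their peaks. The run of 24 peaks from 6711265 to 6730927, at the right end of the stretch described above, had peaks with midpoints a median of 680 bp apart that covered 35.0% of its 19.7 kb. The runs of 9 peaks at 6668438 to 6675504 and 6682971 to 6693743 completed that stretch. Replicate 1 had 14, 8 and 2 peaks across these 3 runs, and replicate 2 had 2, 0 and 0. In the run of 9 at 305008 to 311405, 8 peaks were met by neither replicate list. In that of 8 at 292137 to 296449, 6 were. Both runs lay in the first 1 Mb, and on the whole chromosome 49.0% of series peaks were met by neither list.

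A pair of runs had most or all of their peaks in both replicate lists, but on very few replicate peaks. All 7 series peaks from 4416579 to 4421878 were overlapped by both lists, where each replicate list had a single peak across the whole run. Of 8 series peaks from 12314546 to 12319048, 6 were overlapped by both lists, on 2 peaks of replicate 1 and 1 of replicate 2. At such places the series list, called with MACS v2 rather than MACS, split into several peaks what the replicate lists called as one. On the whole chromosome, 16 peaks of replicate 1 and 15 of replicate 2 met more than 1 series peak, up to 7, and lay over 44 and 43 series peaks. The reverse also occurred, and the 92 series peaks in both lists rested on 97 separate peaks of replicate 1 and 92 of replicate 2. With peaks less than 10 kb apart merged, 61 of 173 sites (35.3%, 28.2% to 42.9%) were met by both lists. A merged site takes in the gaps between its peaks, so it is met more easily by construction, also by replicate peaks at different places in it. The other runs were 4468027 to 4479450 (8 peaks, 1 in both lists), 2599800 to 2604966 (7 peaks, 1 in both) and 13314515 to 13318931 (6 peaks, none in both and 3 met by replicate 2 alone).

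Overlap of at least 1 bp with the replicate lists divided the chromosome IV peaks into 4 classes, much as in the list as a whole. Both lists met 92 of the 420 (21.9%, 18.0% to 26.2%, against 22.4% of all nuclear peaks). Replicate 1 alone met 60 (14.3%, against 11.1%), replicate 2 alone met 62 (14.8%, against 17.7%) and neither met 206 (49.0%, 44.2% to 53.9%, against 48.8%). The shares in both lists and in neither were thus close to the background of the whole list and say nothing particular about chromosome IV. By region, both lists met 19 of the 125 peaks in the piRNA-rich intervals (15.2%, 9.41% to 22.7%) and 73 of the 295 outside (24.7%, 19.9% to 30.1%), and these intervals overlapped. Replicate 1 alone met 33 of the 125 inside and 27 of the 295 outside, whereas replicate 2 alone met 9 inside and 53 outside. Of those 33, 16 lay in the 62.5 kb stretch described above. Without it, replicate 1 alone met 17 of 79 peaks inside and replicate 2 alone met 8.

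Seen from the replicates, 88 of the 177 peaks of replicate 1 on chromosome IV met a peak of replicate 2 (49.7%, 42.1% to 57.3%), against 59.8% over all nuclear chromosomes. The other chromosomes ran from 50.8% on X to 71.4% on I, so chromosome IV was the lowest by a small margin over X, a difference that was not tested. The 62.5 kb stretch held 25 of the 177 replicate 1 peaks but only 2 peaks of replicate 2, each of which overlapped a single replicate 1 peak. In the left piRNA-rich interval, which contains it, 8 of 37 replicate 1 peaks met replicate 2. Leaving the stretch out would therefore raise the share on chromosome IV. By how much was not computed, and the lowest place of chromosome IV may rest on this stretch. In the opposite direction 81 of the 168 peaks of replicate 2 met a peak of replicate 1 (48.2%, 40.5% to 56.0%), against 49.8% over all chromosomes and 43.9% on II to 58.7% on X. The series list met 154 of the replicate 1 peaks (87.0%, 81.1% to 91.6%, against 87.6% overall) and 155 of the replicate 2 peaks (92.3%, 87.1% to 95.8%, against 90.6%). The 23 and 13 replicate peaks that it did not meet were mostly weak, with median scores of 65.0 and 64.9. The strongest of them was found in both replicates at nearly the same place, 13549342 to 13549574 in replicate 1 (score 199.9) and 13549384 to 13549573 in replicate 2 (score 101.6). The next strongest in replicate 1, 16458420 to 16458653 (147.3) and 14781251 to 14781463 (127.1), were also met by a replicate 2 peak. These 3 sites lay in the right piRNA-rich interval. The next strongest in replicate 2, 11902046 to 11902339 (89.1) and 390354 to 390601 (88.2), lay elsewhere and were not met by replicate 1.

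**Figure D3:**
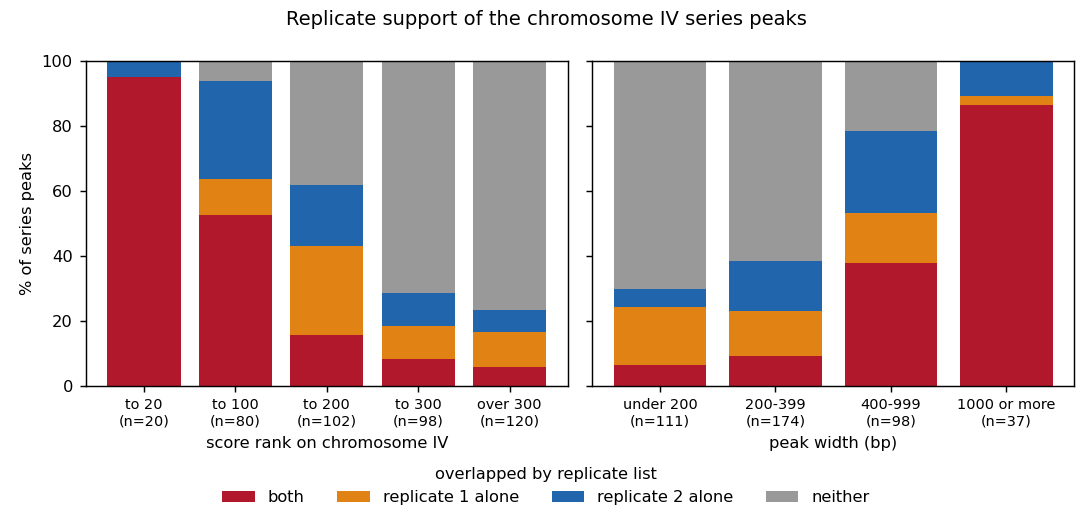
Share of chromosome IV series peaks (y axis, %) overlapped by both replicate lists, by one of them or by neither, in classes of score rank (left) and of peak width (right), with the number of peaks per class. Both lists met 19 of the 20 highest-scoring peaks and 7 of the 120 in the lowest class, and none of the 37 peaks of 1 kb or wider was met by neither list.

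Support followed score and width closely. Of the 20 peaks with the highest score, 19 were met by both lists, of the next 80 ranks 42 (52.5%, 41.0% to 63.8%), and of the 120 peaks past rank 300 only 7 (5.83%, 2.38% to 11.6%). The median score was 12.1 for peaks in both lists (quartiles 7.29 and 23.4) and 4.35 for those in neither (3.48 and 5.46). The single-replicate classes lay between, at 6.96 for replicate 1 alone and 7.73 for replicate 2 alone. Widths moved in the same way, with medians of 656 bp in both lists, 388 bp in replicate 2 alone, 288.5 bp in replicate 1 alone and 225 bp in neither. Both lists met 32 of the 37 peaks of 1 kb or more (86.5%, 71.2% to 95.5%) and 7 of the 111 peaks under 200 bp (6.31%, 2.57% to 12.6%). A wide peak meets another by 1 bp more easily, and the lists may share reads, so these relations are not independent evidence for the sites.

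**Figure D4:**
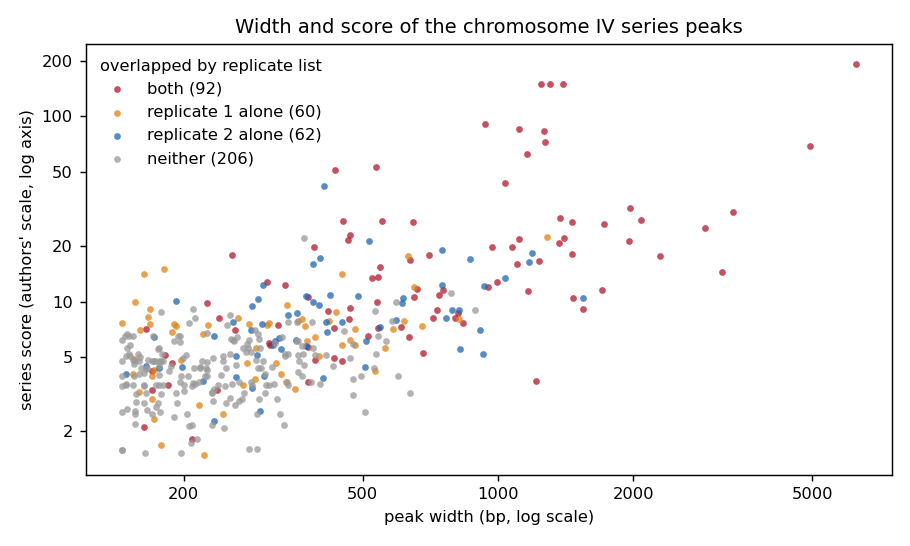
Width (x axis, bp, log scale) and series score (y axis, authors' scale, log axis) of the 420 chromosome IV peaks, coloured by the replicate lists that overlap them. Peaks in both lists fill the upper right, and peaks in neither list lie mostly under a score of 10 and a width of 400 bp.

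Most chromosome IV peaks were narrow. The median width was 294 bp (quartiles 196 and 478 bp, lowest 146 bp), against medians of 271 bp (III) to 338 bp (X) on the other chromosomes, and 7 peaks reached 2 kb. The other chromosomes had 11 (X) to 27 (V) peaks of that width, so chromosome IV had the fewest. Replicate peaks had medians of 320 bp and 416.5 bp, and 8 and 9 of them reached 2 kb. Series peaks covered 192.8 kb (1.10% of the span), replicate 1 peaks 101.8 kb (0.582%) and replicate 2 peaks 107.2 kb (0.613%). The 5 widest series peaks were 11913023 to 11919270 (6248 bp), 3742309 to 3747251 (4943 bp), 4468027 to 4471363 (3337 bp), 8151946 to 8155088 (3143 bp) and 13607097 to 13609978 (2882 bp), and all 5 were met by both replicate lists. Across the 420 peaks Spearman's rho of score and width was 0.608, a description of values taken from the same reads.

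Scores on chromosome IV had a median of 5.63 (quartiles 3.94 and 8.54), within the range of 5.20 (III) to 6.12 (X) on the other chromosomes. A few sites stood far above this. Chromosome IV held 4 of the 10 highest series scores of all nuclear peaks, but 15 of the first 100 and 192 of the first 1000 (19.2%, its share of all peaks). The drop was steep, with 20 peaks at 27.1 or more and the median of the next 80 at 12.6.

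The highest score, 192.6 (rank 3 of all nuclear peaks), belonged to the widest peak, 11913023 to 11919270. Replicate 1 called 2 peaks there, one of 2977 bp at the highest score its chromosome IV peaks reached, 3100, and a weak one of 326 bp at 94.6. Replicate 2 called 3 that together spanned nearly the whole site, of 3637 bp (3100), 2069 bp (1089) and 347 bp (112.2). The right part of the site, past 11916824, was thus called in replicate 2 and in the series list but not in replicate 1. The other broad site of high score, 3742309 to 3747251 (series score 68.8), reached 3100 in replicate 1 and 2832 in replicate 2. The value of exactly 3100 recurred at 25 nuclear peaks of replicate 1 and 19 of replicate 2, with 1 peak in each list above it, so peaks at this value are tied, and it looks like a cap on the score. At the lower end, chromosome IV scores started at 50.2 in replicate 1 and slightly lower in replicate 2, which looks like a cut-off. A score not far above this is among the weakest that a replicate list holds.

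Within 83.6 kb, from 11323942 to 11407492, lay 6 of the 10 highest-scoring chromosome IV peaks, and no other series peak. They were alike in width, from 1158 to 1397 bp, and came in 3 couples. The first couple had scores of 148.5 and 73.0, a gap of 591 bp and starts 1837 bp apart, and the second couple had scores of 82.8 and 148.9, a gap of 538 bp and starts 1807 bp apart. The third couple, at 11400269 and 11406335, had scores of 149.7 and 62.4 but starts 6066 bp apart. Each couple thus held 1 peak near 149 and 1 between 62.4 and 82.8, and in the first and second couples, which lie 10.7 kb apart, the stronger peaks faced away from each other.

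The replicates gave the same order within each of these couples. Replicate 1 scored the stronger peaks 1354, 1459 and 1770 and the weaker ones 507.4, 699.6 and 356.8. Replicate 2 scored the stronger ones 2646, 2710 and 2635 and the weaker ones 1240, 1198 and 957.9. A further couple of like geometry, 7485754 to 7486867 and 7487546 to 7488481, had series scores of 85.5 and 90.6, a gap of 678 bp and starts 1792 bp apart. Its peaks were nearly equal in replicate 1 (483.4 and 506.3), and the left one was higher in replicate 2 (1797 and 1355). The sources used here do not say whether reads that match several places in the genome were kept, and a part of repeated sequence in these couples was not tested.

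**Figure D5:**
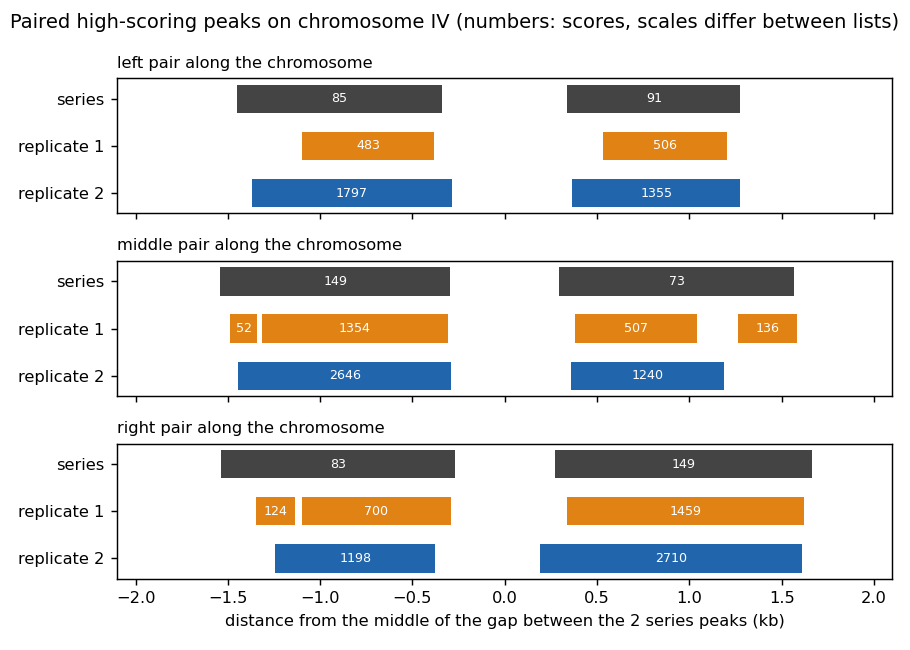
Peaks of the series list and both replicate lists (bars, to scale) at the 3 couples among the 10 highest-scoring chromosome IV peaks less than 1 kb apart, by distance from the middle of the gap in kb, with each peak's score. The top panel is the couple at 7485754, and in the next panels, at 11323942 and 11337713, the stronger series peak is on the left (148.5) and on the right (148.9) in turn.

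Other named sites showed how far the replicates could differ in score at a site that both called. At 8331266 to 8331699 and 8333747 to 8334282 (series scores 51.0 and 53.5), replicate 1 scored 60.1 and 62.7 (ranks 152 and 141 of 177), and replicate 2 scored 769.1 and 1010 (ranks 19 and 16 of 168). Another peak beside them, 8335640 to 8336049 (42.1), was met by replicate 2 alone. The site 4468027 to 4471363 (30.5) likewise had 83.9 in replicate 1 (rank 110) and 1118 in replicate 2 (rank 12), and 13057543 to 13059506 (31.9) had 166.3 (rank 59) and 1595 (rank 7). Contrasts the other way were also seen. At 9067870 to 9068907 (43.9) it was milder, with 1201 in replicate 1 (rank 9) and 232.4 in replicate 2 (rank 46). At 12526094 to 12527492 (22.0) replicate 1 scored 666.0 and replicate 2 scored 56.0. At 10682430 to 10684388 (21.2) they scored 497.65 and 58.7, against chromosome IV list medians of 102.4 and 98.7. The 56.0 and 58.7 of replicate 2 lay under the lower quartile of its list, 69.7. The 60.1 and 62.7 of replicate 1 lay under that of its list, 67.5. The weaker replicate thus barely called these 4 sites, and such contrasts are partly between a strong call and one near the lowest score listed. The peak 2710134 to 2711420 (22.4) was met by replicate 1 alone, at 751.7. The sites 9048055 to 9048701 (26.9) and 2828497 to 2830579 (27.4) ranked high in both, at 10 and 3 in replicate 1 and 29 and 15 in replicate 2. Scores of the 2 replicate lists are not on a known common scale, so ranks or medians within each list are compared. Over the 92 peaks in both lists, Spearman's rho was 0.380 between the replicate scores, 0.228 between series and replicate 1 scores and 0.553 between series and replicate 2 scores.

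The remaining 3 of the 20 highest-scoring peaks in both lists were 8914819 to 8916195 (28.3), 14033768 to 14034219 (27.3) and 3385610 to 3386160 (27.1). Only 1 of these 20, that at 14033768, lay in a piRNA-rich interval, against 19 of all 92 peaks in both lists (20.7%). The 20 are not all separate places, since 6 of them lay within the 83.6 kb described above. Among peaks met by neither list, the last peak of the chromosome had the highest score, 22.06. The next were 16167376 to 16168160 (11.2), 12831411 to 12832002 (9.88), 9196297 to 9196506 (9.09) and 2603344 to 2604231 (9.02).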

How the data were processed

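Per the submitters' processing notes, reads were aligned with BWA to the ce10 build, and per the file headers peak coordinates are of WormBase WS220 (1-based). Per the file headers' program column, the replicate lists came from MACS and the series list from MACS v2. Not given in the sources used here are settings, versions, filters, any use of the input libraries, and which reads the series list rests on. Each deposited peak had a start, an end and the authors' score. No read counts were used, and depth is unknown.

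Peaks were counted by midpoint, overlap meant at least 1 bp, and a chromosome's span ran to the last peak end in any of the 3 lists. The interval arithmetic was checked on artificial lists with known answers (pandas 2.3.3, numpy 2.4.6, scipy 1.17.1). Intervals are exact at 95%. Named sites were the 20 highest-scoring peaks in both replicate lists, the 5 highest in neither, the 5 widest, the 8 runs with most peaks, the 5 longest empty stretches, the end peaks and the 3 strongest replicate peaks outside the series list. The 2 smallest runs, the peaks at 8335640, 2710134, 10682430 and 12526094, the couples of peaks and the 62.5 kb stretch were singled out after their values were seen. The members, intervals and rules were chosen with earlier results of these data known.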

Additional observations from a re-analysis of the deposited data

How the results depend on the processing

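Of 8 shares of peaks recomputed under 54 alternatives, 19 stayed inside the exact 95% interval of the reported value and 35 moved outside it; the cause was not tested, except that a wider window or looser definition takes in more peaks by construction. The share of nuclear peaks on chromosome IV was 16.6% to 19.6% in single replicate lists and 16.8% by base pairs, against 19.2%. The share in the central 33.3% was 35.7% to 48.0% in single replicate lists, 36.7% in the higher-scoring 50%, 37.0% in peaks of both lists and with peaks merged at 10 kb, and 64.3% for the middle 50%, against 43.1%. Without the 62.5 kb stretch it was 36.1% in the series list, 39.5% in replicate 1 (48.0% with it) and 34.9% in replicate 2 (35.7% with it). The share in the piRNA-rich intervals was 20.8% to 39.5% in single replicate lists, 20.7% in peaks of both lists, 23.6% by base pairs, and 40.0% with longer intervals, against 29.8%. Without the stretch it was 21.1% in the series list, 29.6% in replicate 1 (39.5% with it) and 19.9% in replicate 2 (20.8% with it). Overlap with both lists fell from 21.9% to 8.57% where 50% of both peaks had to be shared and 10.5% for midpoints within 200 bp, and was 37.1% in the higher-scoring 50% and 35.3% after merging. Overlap with neither was 70.5%, 58.6%, 23.3% and 37.0% in the same order, against 49.0%. Replicate 1 peaks met by replicate 2 fell from 49.7% to 28.2% and 33.3% under the stricter rules, and replicate 2 peaks met by replicate 1 from 48.2% to 29.8% and 34.5%. The share in runs was 0.00% to 14.1% in single replicate lists, 11.0% with gaps under 1 kb, 27.1% under 5 kb, 39.5% for 4 or more peaks and 14.1% in peaks of both lists, against 22.6%. Leaving out the longest run, the first 1 Mb or the stretch was chosen after seeing the data. No paired analysis was possible because no result here comes from a test of ChIP against input and lists of input samples were not used. That limit concerns ChIP against input only. Regions were compared within each ChIP replicate, without a test. Density in the piRNA-rich intervals was 1.19 times that outside in replicate 1 and 0.479 times in replicate 2.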
